A study of Mus musculus with 88 samples.

Results

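The corticotropin-releasing hormone, oxytocin and vasopressin system was followed through 8 genes in 88 brain RNA-seq libraries of defeated and control mice. The members were chosen by name, not by a measured value, and their rows were found by Ensembl identifier in the GRCm38 annotation. They are Crh, Crhr1, Crhr2, Crhbp, Avp, Oxt, Avpr1a and Oxtr, 8 of the 48811 genes present in any of the 3 tables. The BNST table held all 8 among 48795 genes, and all 8 passed the filter on low counts. The mPFC table held 4 of them (Crh, Crhr1, Crhbp and Oxtr) among 18946 genes, and the vHPC table held 5 (the same and Crhr2) among 19559 genes. Avp, Oxt and Avpr1a had been filtered out as low by the authors in both of these regions, and Crhr2 in the mPFC.

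The mice were males of 8 weeks from the inbred strains C57BL/6Crl (B6) and DBA/2Crl (D2), as the labels spell them, while the study's methods give the substrains C57BL/6NCrl and DBA/2NCrl. In chronic social defeat stress (CSDS) a mouse meets a larger aggressor repeatedly, and each defeated mouse was classed as resilient or susceptible by how much it approached an unfamiliar mouse. Control mice were not defeated, and all tissue was taken after the end of the defeat period from the medial prefrontal cortex (mPFC), the bed nucleus of the stria terminalis (BNST) or the ventral hippocampus (vHPC). From the mPFC there were 6 B6 controls, 6 B6 resilient and 6 B6 susceptible mice, with 6 D2 controls and 8 D2 susceptible mice. From the BNST there were 5 mice in each B6 group, 5 D2 controls, 3 D2 resilient and 5 D2 susceptible mice. From the vHPC there were 6 B6 controls, 8 B6 resilient, 3 B6 susceptible, 6 D2 control and 5 D2 susceptible mice. Each library came from 1 mouse, and for 7 mice the mPFC and the vHPC were both sequenced. Per the study's methods, control mice shared a cage with a changing control mouse during the defeat period, and every mouse then lived alone until dissection. Whether mice of a group shared a litter is not given in the sources used here.

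Crh encodes corticotropin-releasing hormone, the peptide that starts the hormonal stress response from the hypothalamus and also acts as a neuromodulator made by local neurons of cortex, hippocampus and the extended amygdala, to which the BNST belongs. It signals through the G protein-coupled receptors encoded by Crhr1 and Crhr2, and the secreted protein encoded by Crhbp binds the peptide and keeps it from the receptors. Avp and Oxt encode the sister peptides vasopressin and oxytocin, made chiefly in hypothalamic neurons, and in rodents a vasopressin cell group also lies in the BNST. Avpr1a and Oxtr encode the main brain receptors of these peptides, which couple to Gq and shape social and anxiety-related behavior.

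The genes lie on 6 chromosomes of GRCm38. Crh is at chromosome 3:19693401-19695396, Crhr1 at 11:104132855-104175523, Crhbp at 13:95431371-95444924 and Avpr1a at 10:122448499-122453452. Crhr2 (6:55090049-55133016) and Oxtr (6:112473683-112489943) share chromosome 6. Oxt (2:130576173-130577054, plus strand) and Avp (2:130580620-130582554, minus strand) face each other tail to tail on chromosome 2, with 3565 bp between them. All 8 are protein-coding, and read counts over their exons were the measurement. Avpr1a overlaps the antisense gene Gm48877, with which it shares 0 exon bases.

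The 250 bases before the start of Avp and of Oxt are shown because both genes lie side by side and their levels varied together in the BNST, as the relations between peptide levels show. RefSeq's table (GRCm38.p6) held 7 of the 8 members, all but Crh. Distances are counted from RefSeq's start, which for Avp and Oxt lies upstream of the gene bounds given above, further for Avp. Capitals mark 2 motifs that were searched on both strands. The first is TGACC, a half-site that nuclear receptors recognise, which reads GGTCA on the other strand. The second is CATAAA, a sequence like the TATA box. The matches of the motifs do not overlap each other.

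Avp, chr2:130582589-130582838, minus strand: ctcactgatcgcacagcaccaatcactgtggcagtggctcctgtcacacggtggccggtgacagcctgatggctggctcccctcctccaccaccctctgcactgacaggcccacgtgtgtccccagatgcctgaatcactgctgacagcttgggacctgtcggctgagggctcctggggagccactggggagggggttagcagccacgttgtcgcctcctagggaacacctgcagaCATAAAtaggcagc

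Oxt, chr2:130575919-130576168, plus strand: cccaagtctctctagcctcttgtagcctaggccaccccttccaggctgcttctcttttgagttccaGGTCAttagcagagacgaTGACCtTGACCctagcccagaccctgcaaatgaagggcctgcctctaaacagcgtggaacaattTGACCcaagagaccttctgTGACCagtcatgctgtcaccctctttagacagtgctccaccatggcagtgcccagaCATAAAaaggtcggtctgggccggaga

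The Oxt sequence held 5 copies of TGACC, which start 184, 166, 160, 102 and 83 bases before RefSeq's start, and the Avp sequence held 0. At least 1 copy was present in 35.2% of 32851 promoters of the same length, and at least 5 copies in 0.0426%. Crhbp and Oxtr held 1 copy each, and Avpr1a, Crhr1 and Crhr2 held 0. CATAAA stood 27 bases before the start of Oxt and 14 before that of Avp, and was found in about 11% of the promoters. The Avp sequence was richer in G and C (62.4%) than the Oxt sequence (54.0%). These matches describe the letters in the window and were not tested against the expression values.

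Some properties of the libraries bear on the results. The 3 regions were prepared with different kits and normalized separately, so levels in different regions stand side by side without a test. Total counts of the BNST libraries ran from 11825757 to 25793910. The summed CPM of 6 GABA neuron genes was 965 to 2052 in the BNST, against 369 to 1038 in the mPFC and 445 to 580 in the vHPC. In the BNST, 8 striatal neuron genes summed to 873 to 8125 CPM, so its libraries differed in how much they held of such RNA. In bulk tissue fewer cells of a type and less RNA per cell cannot be told apart. Both control and defeated mice were in 4 of 5 library preparation sets of each strain for the mPFC and in 2 of 2 for the BNST. In the vHPC 0 of 9 B6 sets and 1 of 6 D2 sets did, so that there batch and stress group can hardly be told apart within a strain.

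The defeated vHPC groups were also displaced along the difference between the strains. Over 88 genes with large strain differences in the BNST controls (adjusted p under 0.05 in edgeR and a log2 difference above 3), each library was placed on a scale on which B6 controls of its region average 0 and D2 controls 1. The B6 resilient vHPC libraries lay at 0.293 to 0.365 and the B6 susceptible ones at 0.433 to 0.491, while B6 controls lay within −0.026 to 0.028. D2 susceptible vHPC libraries lay at 1.16 to 1.27. In the mPFC the group means were 0.0184 (B6 resilient), 0.0354 (B6 susceptible) and 1.04 (D2 susceptible). Every stress comparison in the vHPC that called a member is therefore given also with this displacement taken off, a choice made after the data had been seen.

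Per length, Crhbp was the most abundant member in every vHPC group and in all mPFC groups but 1, while Avp or Crhr1 led in the BNST. Levels of different genes were compared only as log2 RPKM, which divides by exon length. In the vHPC the group means of Crhbp were 3.93 to 4.122 log2 RPKM, above 80.3% to 82.6% of the 15993 genes present in all 3 tables. Crhr1 followed at 2.175 to 3.02, Oxtr at 1.56 to 2.19, Crh at −0.14 to 0.71 and Crhr2 at −1.17 to −0.63. In the mPFC Crhbp (2.996 to 3.69 log2 RPKM), Crh (2.66 to 3.02) and Crhr1 (2.47 to 2.77) lay close together, and Oxtr (1.04 to 1.17) lay lower. In the vHPC and the mPFC the binding protein was thus above the peptide it binds, except in B6 susceptible mice of the mPFC. There Crh (3.02) and Crhbp (2.996) stood level.

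In the BNST the order was different. Avp reached group means of 0.01 to 3.56 log2 RPKM, a wider range of groups than any other member there. It led in both control groups, in B6 susceptible and in D2 resilient mice, and Crhr1 led in B6 resilient and D2 susceptible mice. Crhr1 lay at 1.25 to 2.09, Crh at 0.14 to 1.42 and Oxtr at 0.11 to 0.78. Oxt (−1.26 to 0.84), Crhbp (−1.72 to 0.05), Crhr2 (−2.19 to −0.24) and Avpr1a (−2.24 to −0.49) were low, and Avpr1a and Crhr2 lay above at most 11.6% and 13.6% of genes in any group. Crh was thus above Crhbp in every BNST group, the reverse of the other regions.

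**Figure D1:**
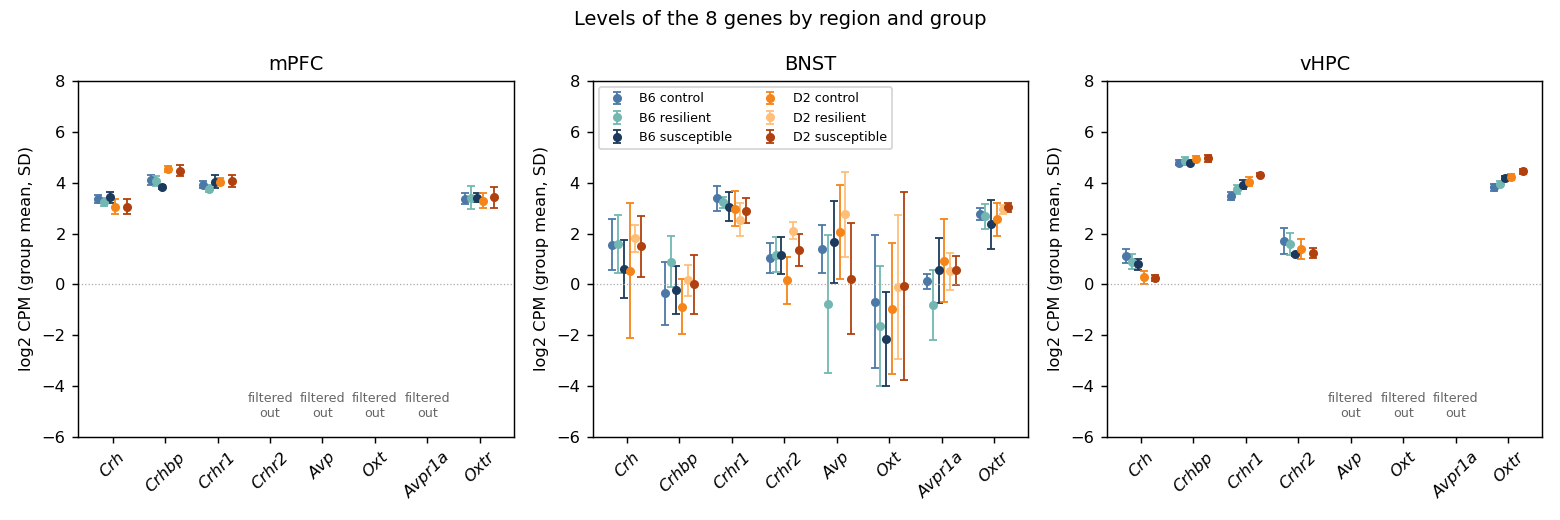
Mean level of each member by region on a log2 scale, with 1 point per group of strain and phenotype. In log2 RPKM (log2 CPM less the log2 of exon length in kb), Crhbp was highest in the vHPC (3.93 to 4.122). On that scale Avp (0.01 to 3.56) had the widest range of groups in the BNST.

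The 7 mice with libraries from both cortex and hippocampus gave a within-mouse view of 4 members, though the tables were normalized separately and no test was made. Crh was higher in the mPFC value in 7 of 7 mice, by 2.37 ± 0.43 on the log2 CPM scale (SD, n = 7; 1.82 to 3.00). Crhbp was lower in the mPFC value in all 7, by a difference of −0.51 ± 0.07 (SD, n = 7). Oxtr differed by −0.51 ± 0.31 and was lower in the mPFC value in all but 1 mouse, and Crhr1 differed by −0.06 ± 0.42 with 4 of 7 mice higher in the mPFC.

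The 3 peptide genes of the BNST varied among mice of the same group more than nearly all other genes. The SD within groups was 1.49 for Crh, 1.92 for Avp and 2.70 for Oxt on the log2 CPM scale, against a median of 0.42 over all 17515 genes tested. These values were above those of 98.955%, 99.8% and 99.97% of the genes. By contrast, Crhr1 (0.53) and Oxtr (0.55), the receptors with the most reads, exceeded 65.8% and 67.9% of genes. In the other regions Crh spread less, with an SD of 0.24 in the mPFC and 0.25 in the vHPC.

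Avp ranged from 0 to 426 reads in the BNST. B6 controls held 21, 17, 66, 60 and 65 reads, B6 resilient mice 12, 4, 0, 48 and 35, and B6 susceptible mice 35, 34, 9, 128 and 109. D2 controls held 426, 10, 49, 48 and 84 reads, D2 resilient mice 396, 79 and 37, and D2 susceptible mice 1, 52, 88, 35 and 23. A count of 0 allows up to 3 reads, and such intervals cover counting error only. All 6 groups overlapped, and the 2 libraries near 400 reads were 1 D2 control and 1 D2 resilient mouse. The group means ran from −0.78 ± 2.71 (SD, n = 5) log2 CPM in B6 resilient to 2.77 ± 1.67 (SD, n = 3) in D2 resilient mice.

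Oxt had fewer reads, with 5 of 28 libraries at 0 and 13 under 10 reads. The counts were 65, 13, 17, 0 and 11 in B6 controls, 15, 1, 0, 13 and 15 in B6 resilient and 0, 5, 3, 14 and 2 in B6 susceptible mice. They were 63, 8, 13, 0 and 8 in D2 controls, 53, 38 and 1 in D2 resilient and 0, 674, 71, 7 and 12 in D2 susceptible mice. One D2 susceptible library (replicate 2) thus held more Oxt reads than all others of its group together, and its group also held a library at 0. The groups overlapped throughout, with means from −2.15 ± 1.85 (SD, n = 5) log2 CPM in B6 susceptible to −0.06 ± 3.69 (SD, n = 5) in D2 susceptible mice, where 0 reads stands at −4.97.

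Crh held 97, 78, 24, 40 and 22 reads in B6 controls, 14, 79, 75, 72 and 22 in B6 resilient and 26, 32, 6, 31 and 24 in B6 susceptible mice. It held 119, 105, 30, 3 and 3 reads in D2 controls, 38, 72 and 59 in D2 resilient and 54, 93, 92, 62 and 15 in D2 susceptible mice. The lowest and the highest counts of the whole region were both D2 controls, and the groups overlapped. Group means ran from 0.54 ± 2.65 (SD, n = 5) log2 CPM in D2 controls to 1.82 ± 0.53 (SD, n = 3) in D2 resilient mice.

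**Figure D2:**
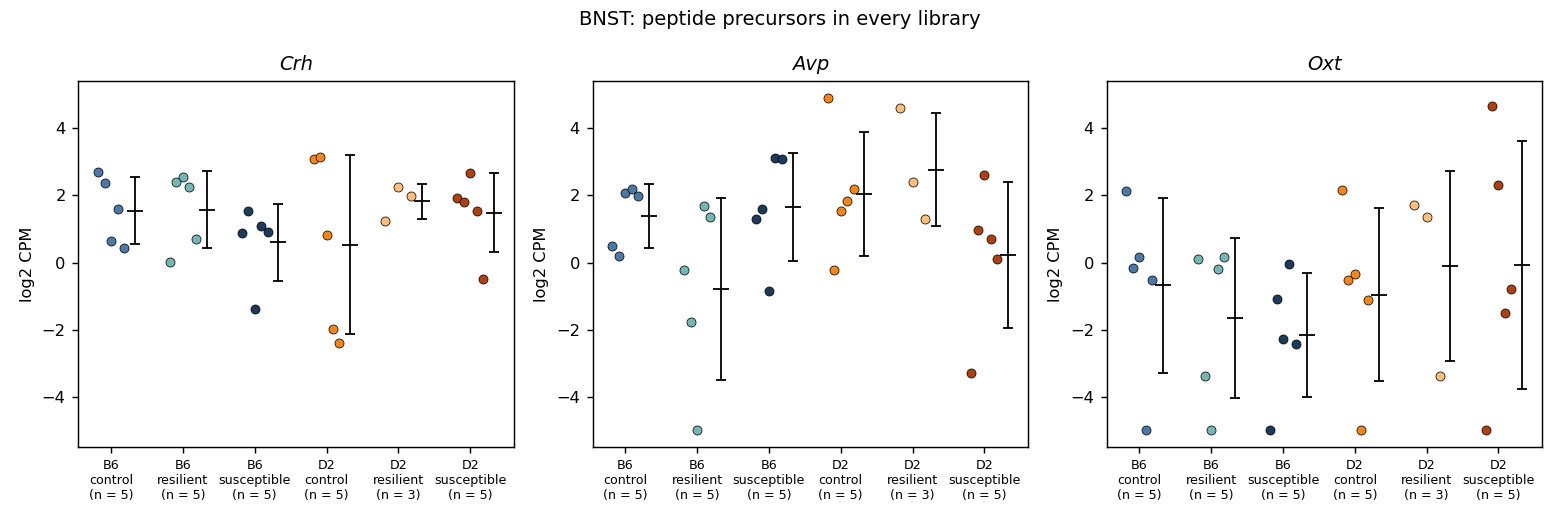
Log2 CPM (TMM-scaled, prior count 0.5) of Crh, Avp and Oxt in each of the 28 BNST libraries by group, with bars for the group means and SD. Points of all groups overlap, and libraries without a read lie at −4.97.

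In the BNST Avp moved with Oxt and with a sum of hypothalamic marker genes, made up mostly of Trh and Nkx2-1. Relations were computed over the libraries of a region after group means were taken off, as a family of 9 with permutation tests, 7 of them over the 28 BNST libraries and 1 in each of the other regions. All points share library and depth with each other, and the relations are descriptions. Avp rose with Oxt (Pearson r = 0.56, adjusted p = 0.00585, permutation test, and Spearman rho = 0.56, adjusted p = 0.00717). Without the 2 libraries farthest from the median of Avp, r was 0.39 (adjusted p = 0.0873), so at that threshold the relation no longer held, and within the library preparation sets r was 0.69 and 0.54. Avp also rose with the summed level of 9 hypothalamic neuron genes (r = 0.70, adjusted p = 0.00081, and rho = 0.62, adjusted p = 0.00243, permutation tests), at 0.54 (adjusted p = 0.0226) without the 2 farthest libraries and 0.81 and 0.74 within the sets. For Oxt and that sum r was 0.46 (adjusted p = 0.0314) and rho 0.32 (adjusted p = 0.171) by permutation tests, with 0.40 (adjusted p = 0.0873) without the 2 farthest and 0.38 and 0.66 within sets.

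The hypothalamic sum itself was low, at 8.45 to 52.4 CPM with a median of 21.2. Trh and Nkx2-1 made up most of it, while Hcrt was at 0 reads in 14 libraries, Agrp in 13, Pmch in 7, Fezf1 in 6 and Sim1 in 3. The library with 674 Oxt reads had the highest sum (52.4 CPM), and the B6 resilient library with 0 reads of both Avp and Oxt had the lowest (8.45 CPM). The part of hypothalamic neurons in the peptide levels was not tested.

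Crh moved with its binding protein and not detectably with the other peptides. Crh and Crhbp gave r = 0.63 (adjusted p = 0.0018) and rho = 0.62 (adjusted p = 0.00243) in the BNST by permutation tests, r = 0.58 (adjusted p = 0.0155) without the 2 farthest libraries, and 0.61 and 0.69 within the sets. In the mPFC, with 32 libraries, r was −0.00055 (adjusted p = 0.998) by the permutation test, and −0.34, −0.04, 0.54 and −0.21 within the 4 sets of at least 6 libraries. In the vHPC r was 0.37 (adjusted p = 0.0956) and rho 0.41 (adjusted p = 0.0712) by permutation tests over 28 libraries, where no set held 6 libraries. Crh with Avp (r = −0.03, adjusted p = 0.998) and with Oxt (r = 0.21, adjusted p = 0.443) missed the threshold in the BNST by permutation tests. So did Crhr2 with the sum of 7 choroid plexus genes (r = 0.15, adjusted p = 0.562, permutation test), of which Clic6 and Kl had the highest medians.

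**Figure D3:**
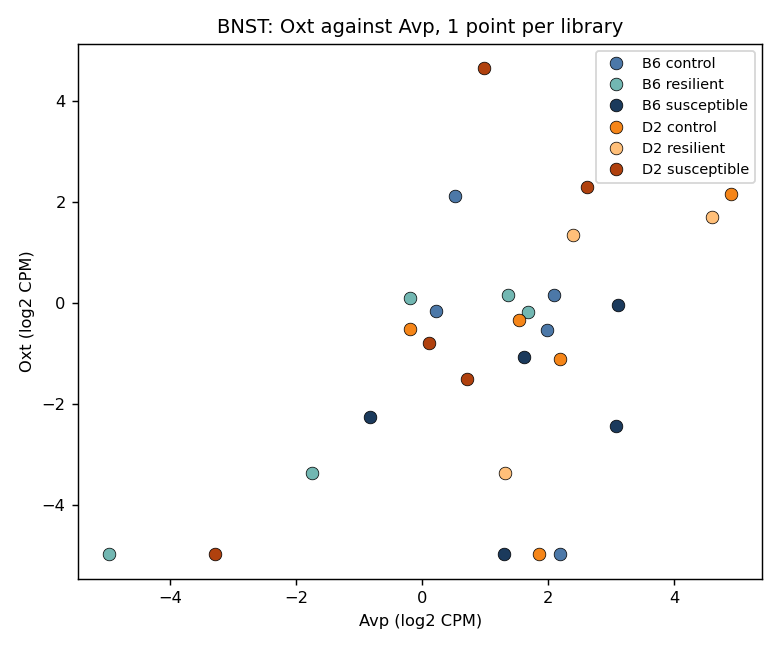
Avp against Oxt in the 28 BNST libraries, both on the log2 CPM scale, with strain and phenotype marked. After group means were taken off, libraries high in one tended to be high in the other (r = 0.56).

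Among the other BNST members, Crhr1 (43 to 263 reads, median 127.5) and Oxtr (27 to 216, median 106.5) were well covered. Crhbp held 2 to 53 reads with a median of 15. Crhr2 held 38, 46, 38, 22 and 18 reads in B6 controls, 19, 37, 61, 27 and 27 in B6 resilient and 27, 32, 59, 14 and 36 in B6 susceptible mice. In D2 mice it held 34, 8, 19, 23 and 9 in controls, 57, 63 and 84 in resilient and 34, 69, 59, 69 and 27 in susceptible mice. Every D2 resilient library lay above every D2 control, and D2 susceptible mice overlapped both. Avpr1a, the vasopressin receptor, held 20, 13, 13, 16 and 19 reads in B6 controls, 10, 15, 1, 17 and 8 in B6 resilient and 54, 7, 15, 11 and 50 in B6 susceptible mice. D2 controls held 29, 129, 25, 21 and 8, D2 resilient mice 25, 12 and 34, and D2 susceptible mice 33, 32, 29, 28 and 19, so that 1 D2 control stood above all others.

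In the BNST edgeR called none of the 8 members in any comparison. With its quasi-likelihood test, 0 of 8 had an adjusted p under 0.05 in the 6 stress comparisons. The share called over all genes was 0% in B6 resilient versus control, B6 susceptible versus control, D2 resilient versus control, D2 susceptible versus control and D2 susceptible versus resilient mice, and 0.00571% in B6 susceptible versus resilient mice. At an unadjusted p under 0.05 the members numbered 0, 0, 1, 1, 2 and 1 in B6 resilient versus control, B6 susceptible versus control, B6 susceptible versus resilient, D2 resilient versus control, D2 susceptible versus control and D2 susceptible versus resilient mice. All genes passed that mark in 1.87%, 6.37%, 7.55%, 5.44%, 6.03% and 1.31% of tests, in the same order. DESeq2 and limma on voom values also called 0 members in these 6 comparisons, where DESeq2 called 0 to 42 of 17515 genes and limma 0.

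Crhr2 in D2 mice gave the smallest unadjusted p of any stress comparison in the BNST. Its mean was 0.16 ± 0.92 (SD, n = 5) log2 CPM in D2 controls, 2.12 ± 0.34 (SD, n = 3) in D2 resilient and 1.34 ± 0.64 (SD, n = 5) in D2 susceptible mice. The fitted log2 difference to the shared controls was 1.79 (SE 0.47, unadjusted p = 0.000724, adjusted p = 0.846, edgeR) in resilient mice. It was 1.07 (SE 0.42, unadjusted p = 0.0173, adjusted p = 0.677, edgeR) in susceptible mice. No D2 control had the mouse ID prefix of a D2 resilient mouse, so this difference could not be checked with the prefix as covariate. In B6 mice the corresponding differences were 0.18 (SE 0.41) and 0.15 (SE 0.41). The strain by stress interaction for Crhr2 in resilient mice was 1.60 (SE 0.63, unadjusted p = 0.0167) with an edgeR adjusted p near 1. Of 7 choroid plexus genes, whose tissue is known to express Crhr2, the summed CPM was 28.7 to 80.1 in D2 controls, 49.8 to 60.8 in D2 resilient and 26.3 to 72.1 in D2 susceptible mice.

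The peptides gave large differences with large errors. Between D2 susceptible and D2 control mice Avp gave a log2 difference of −1.97 (SE 0.91, unadjusted p = 0.0398, adjusted p = 0.799, edgeR), which was −0.49 without D2 control replicate 1, the library with 426 reads. Against D2 resilient mice the difference of Avp was −2.32 (SE 0.998, unadjusted p = 0.0281), and −0.85 without D2 resilient replicate 1, the library with 396 reads. For Crh the fitted difference between D2 susceptible and control mice was −0.17 (SE 0.73, edgeR), while the means of log2 CPM were 1.49 and 0.54, so the fit and the means differ in sign. In B6 mice Crh differed by −0.98 (SE 0.76, approximate 95% interval −2.46 to 0.50) between susceptible mice and controls. Avpr1a differed between B6 susceptible and B6 resilient mice by 1.48 (SE 0.67, unadjusted p = 0.0362, adjusted p = 0.629, edgeR).

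Between the strains Oxt came nearest to a call. In susceptible mice its log2 difference, D2 less B6, was 4.155 (SE 1.34, adjusted p = 0.0694, edgeR), and it was 2.02 (adjusted p = 0.50, edgeR) without D2 susceptible replicate 2. The interaction of strain and stress for Oxt was 4.302 (SE 1.78, unadjusted p = 0.0227, adjusted p = 0.328, edgeR), and 2.167 without that library. Avpr1a gave a difference of 1.58 between D2 and B6 controls (SE 0.65, unadjusted p = 0.0217, adjusted p = 0.269, edgeR), which was 0.34 without D2 control replicate 2, which held 129 reads. The same library moved its interaction in susceptible mice from −1.95 (SE 0.90, unadjusted p = 0.0398) to −0.72. The edgeR test called 0 of 8 members between strains in controls (2.51% of all genes) and 0 of 8 in susceptible mice (5.18%), with 1 member in each at an unadjusted p under 0.05 (13.4% and 18.4% of all genes). DESeq2 called Oxt in susceptible mice (4.16, adjusted p = 0.0453), where it called 1450 of 17515 genes and edgeR called 907. In edgeR both interactions called 0 of 8 members and 0% of all genes, with 2 members in susceptible and 1 in resilient mice at an unadjusted p under 0.05 (11.4% and 3.36% of all genes). Over all genes DESeq2 called 223 in the interaction for susceptible and 2 in that for resilient mice.

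In the mPFC the binding protein gene Crhbp differed between the strains and not detectably with stress. Its level was 3.77, 4.10 and 4.41 log2 CPM (lowest, median and highest of 6) in B6 controls and 4.34, 4.56 and 4.69 in D2 controls. In the other groups it was 3.74, 3.85 and 3.94 in B6 susceptible mice and 4.09, 4.49 and 4.74 in D2 susceptible mice, and 3.87, 4.04 and 4.39 in B6 resilient mice. All D2 susceptible mice lay above all B6 susceptible mice, while 1 or more control mice of the strains overlapped. Crhbp was higher in D2 than in B6 controls by 0.44 (SE 0.10, adjusted p = 0.00136, limma), which is 1.36-fold. In susceptible mice it was higher by 0.64 (SE 0.09, adjusted p = 5.42e-06, limma), or 1.55-fold.

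The peptide gene Crh went the other way in the mPFC. It lay at 3.105, 3.42 and 3.51 log2 CPM (lowest, median, highest) in B6 controls and 2.71, 3.13 and 3.51 in D2 controls. In susceptible mice it lay at 3.2, 3.4 and 3.83 in B6 and 2.66, 3.152 and 3.35 in D2, and it lay at 2.99, 3.25 and 3.44 in B6 resilient mice. The strains overlapped in both conditions. Crh was lower in D2 susceptible than in B6 susceptible mice, by a log2 difference of −0.36 (SE 0.13, adjusted p = 0.0442, limma, 0.777-fold). The difference was −0.30 (SE 0.14, adjusted p = 0.101, limma) in controls. The call in susceptible mice was lost in 8 of 14 fits that left out 1 mouse.

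The receptors Crhr1 and Oxtr did not pass the test between strains in the mPFC. Group means were 3.77 to 4.07 log2 CPM for Crhr1 and 3.298 to 3.43 for Oxtr. The D2 less B6 difference in controls was 0.13 (SE 0.11, approximate 95% interval −0.09 to 0.34) for Crhr1 and −0.07 (SE 0.19, −0.44 to 0.30) for Oxtr. The counts called by limma were thus 1 of 4 members in controls, where 27.8% of all genes were called, and 2 of 4 in susceptible mice, where 17.5% were. Oligodendrocyte markers differed between the controls of the strains: 6 of them summed to 1457 to 2787 CPM in B6 controls and to 963 to 1415 CPM in D2 controls. In susceptible mice the sums overlapped, at 1049 to 1611 CPM in B6 and 835 to 1521 CPM in D2. Their part in the Crhbp and Crh differences was not tested.

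**Figure D4:**
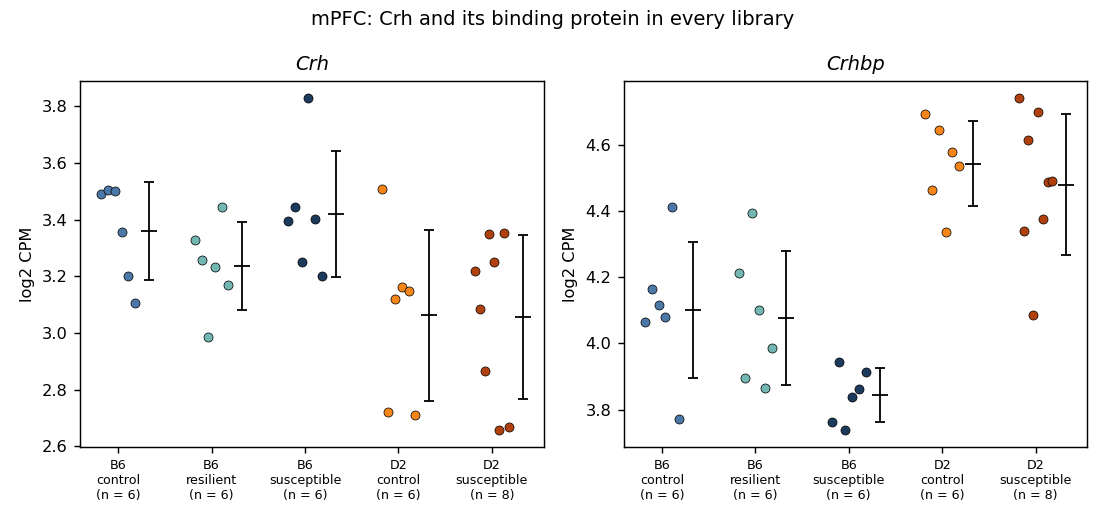
Deposited log2 CPM of Crh and Crhbp in each of the 32 mPFC libraries by group, with bars for the group means and SD. The mean of Crhbp is higher in D2 than in B6 controls (4.54 and 4.10), and that of Crh is lower (3.06 and 3.36, not called). Libraries of the control groups overlap for both genes.

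Stress changed none of the 4 members past the threshold in the mPFC. With limma 0 of 4 were called in B6 resilient versus control (0% of all genes), B6 susceptible versus control (2.22%), B6 susceptible versus resilient (2.02%) and D2 susceptible versus control mice (0%). At an unadjusted p under 0.05 the members numbered 0, 1, 2 and 0, against 3.86%, 18.2%, 19.6% and 3.87% of all genes. Crhbp was 3.84 ± 0.08 (SD, n = 6) log2 CPM in B6 susceptible mice and 4.10 ± 0.21 (SD, n = 6) in B6 controls, a difference of −0.26 (SE 0.10, unadjusted p = 0.0159, adjusted p = 0.160, limma). Against B6 resilient mice it was −0.23 (SE 0.10, adjusted p = 0.198, limma), and Crhr1 gave 0.28 (SE 0.11, adjusted p = 0.160, limma) in the same comparison. The B6 susceptible mice also had lower oligodendrocyte sums (1049 to 1611 CPM) and striatal sums (179 to 295 CPM, against 242 to 573 CPM in controls), whose part was not tested. Most B6 susceptible mice shared a mouse ID prefix that few B6 controls and no B6 resilient mice had. With the prefix as covariate limma called 0 of 18946 genes in both comparisons of B6 susceptible mice. The strains share no prefix, so comparisons between strains could not be fitted with it. In D2 mice the differences ran from −0.06 (Crhbp, SE 0.09) to 0.14 (Oxtr, SE 0.18). The interaction of strain and stress called 0 of 4 members and 0% of all genes in limma, with 0 members at an unadjusted p under 0.05 (9.32% of all genes).

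In vHPC controls limma called 3 of 5 members between strains, the peptide gene Crh and the receptor genes Crhr1 and Oxtr. That share was near the 59.3% of all genes. Crh was lower in D2 mice, and Crhr1 and Oxtr were higher. Crh lay at 0.68, 1.2 and 1.36 log2 CPM (lowest, median, highest) in B6 controls and at −0.05, 0.30 and 0.69 in D2 controls, whose ranges met at 0.68 to 0.69. Crhr1 lay at 3.27, 3.51 and 3.68 in B6 controls and at 3.83, 4.02 and 4.26 in D2 controls. Oxtr lay at 3.66, 3.78 and 4.01 in B6 controls and at 4.08, 4.188 and 4.42 in D2 controls. For both receptors the control groups did not overlap, in a region where 59.3% of all genes were called between strains.

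The log2 differences between D2 and B6 controls were −0.83 for Crh (SE 0.14, adjusted p = 1.66e-05, limma, 0.562-fold), 0.56 for Crhr1 (SE 0.09, adjusted p = 9.04e-06, limma, 1.48-fold) and 0.40 for Oxtr (SE 0.06, adjusted p = 7.56e-06, limma, 1.32-fold). Crhbp differed by 0.16 (SE 0.07, adjusted p = 0.0619, limma) and Crhr2 by −0.34 (SE 0.22, adjusted p = 0.184, limma). The same 3 members were called between susceptible mice, with −0.53 for Crh (SE 0.18, adjusted p = 0.0232), 0.40 for Crhr1 (SE 0.11, adjusted p = 0.00956) and 0.26 for Oxtr (SE 0.08, adjusted p = 0.0145) in limma. These 3 of 5 members stand beside 32.7% of all genes. With the library preparation set as a covariate 0 members were called in either comparison, where 1643 and 739 of 19559 genes were, at −1.16 for Crh, 0.75 for Crhr1 and 0.17 for Oxtr in controls. Cell markers differed as well: 6 oligodendrocyte genes summed to 2994 to 3400 CPM in B6 and 1204 to 1882 CPM in D2 controls, and 6 cortical interneuron genes to 123 to 139 and 147 to 183 CPM. Their part was not tested.

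Stress went with higher values of the same receptors in the vHPC as deposited. Crhr1 was at 3.35, 3.73 and 3.93 log2 CPM (lowest, median, highest) in B6 resilient mice, at 3.98, 3.73 and 4.07 in the 3 B6 susceptible mice, and at 4.27, 4.37, 4.38, 4.31 and 4.29 in the D2 susceptible mice. Oxtr was at 3.82, 3.96 and 4.10 in B6 resilient mice, at 4.11, 4.174 and 4.29 in B6 susceptible mice, and at 4.36, 4.44, 4.36, 4.52 and 4.59 in D2 susceptible mice. For both receptors all B6 susceptible mice lay above all B6 controls, and for Crhr1 all D2 susceptible mice above all D2 controls. Resilient B6 mice overlapped the controls in both.

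The B6 comparisons share their control mice. In B6 susceptible mice Crhr1 was higher by 0.45 (SE 0.11, adjusted p = 0.00255, limma, 1.37-fold) and Oxtr by 0.37 (SE 0.08, adjusted p = 0.000611, limma, 1.3-fold), so 2 of 5 members were called higher, where 20.5% of all genes were. In B6 resilient mice Crhr1 was higher by 0.26 (SE 0.09, adjusted p = 0.0478, limma, 1.2-fold) and Oxtr differed by 0.15 (SE 0.06, adjusted p = 0.111, limma), or 1 of 5 members called higher against 4.94% of all genes. Susceptible B6 mice were above resilient ones in Oxtr by 0.22 (SE 0.07, adjusted p = 0.0292, limma), 1 of 5 members called higher against 14.1% of all genes. In D2 susceptible mice Oxtr was higher by 0.24 (SE 0.07, adjusted p = 0.0397, limma) and Crhr1 differed by 0.29 (SE 0.10, adjusted p = 0.0926, limma), or 1 of 5 called higher against 1.54% of all genes. No member was called lower in these comparisons. Counted in either direction, limma called 7949 of 19559 genes in B6 susceptible mice, near the share of the members, and 2120 in B6 resilient mice. It called 5404 genes between susceptible and resilient B6 mice and 837 in D2 susceptible mice.

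These calls depended on the libraries and on the displacement along the strain difference. With the displacement taken off, 0 of 5 members were called in all 4 stress comparisons. That setting called 0 of 19559 genes in the 3 comparisons with controls, so the count of members carries no information there, and 2680 genes between susceptible and resilient B6 mice. Crhr1 was then 0.20 (adjusted p = 0.225, limma) and Oxtr 0.19 (adjusted p = 0.118, limma) in B6 susceptible mice, Crhr1 was 0.08 in B6 resilient mice, Oxtr was 0.17 (adjusted p = 0.108, limma) between susceptible and resilient mice, and Oxtr was 0.14 in D2 susceptible mice. With the library preparation set as a covariate 0 members were called too, but so few genes were called (41 in B6 resilient, 202 in B6 susceptible and 3 in D2 susceptible mice versus controls, and 0 between susceptible and resilient mice) that this count says little of the members. Under it Crhr1 was 0.30 (SE 0.34) in B6 resilient and 0.60 (SE 0.32) in B6 susceptible mice. Oxtr was 0.18 (SE 0.22) in B6 susceptible mice versus controls, 0.301 (SE 0.11) versus resilient mice and 0.50 (SE 0.16) in D2 susceptible mice. The Crhr1 call in B6 resilient mice was lost in 12 of 14 fits that left out 1 mouse, and the Oxtr call in D2 susceptible mice in 7 of 11. The Oxtr call between susceptible and resilient B6 mice was lost without B6 resilient replicate 5 and without B6 susceptible replicate 2 or 3. Oligodendrocyte sums differed between these groups as well, with 1774 to 2037 CPM in B6 susceptible and 1036 to 1356 CPM in D2 susceptible mice, and GABA neuron sums were 445 to 501 CPM in B6 controls and 523 to 549 CPM in B6 susceptible mice. Their part was not tested.

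**Figure D5:**
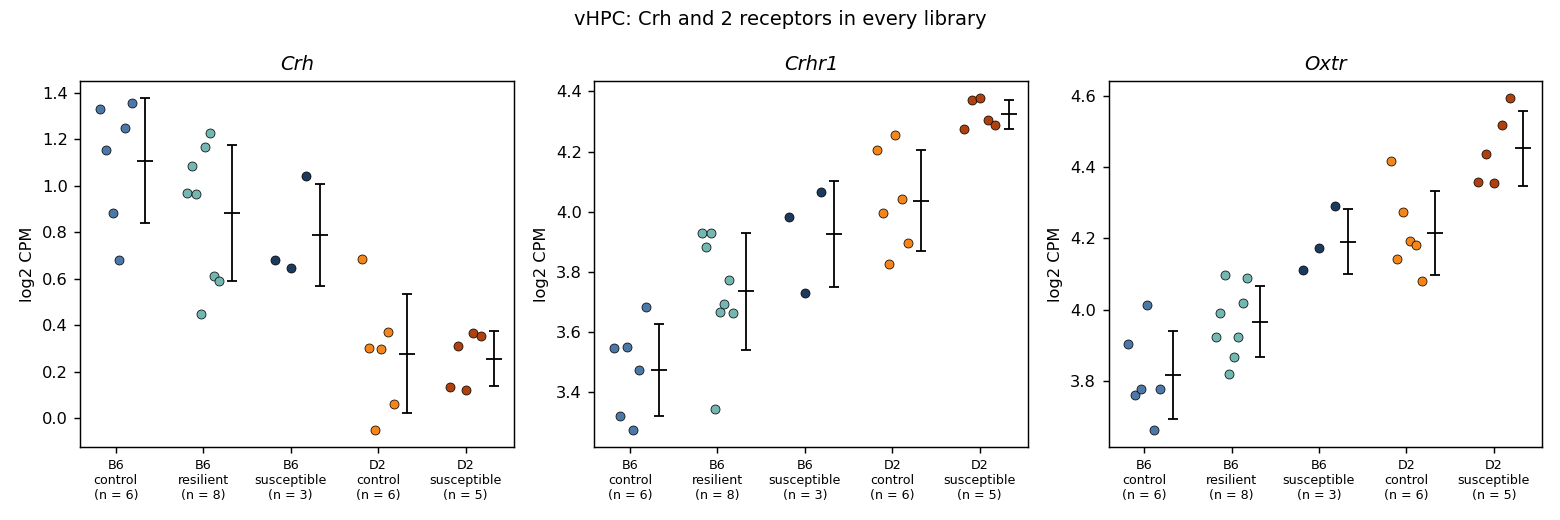
Deposited log2 CPM of Crh, Crhr1 and Oxtr in each of the 28 vHPC libraries by group, with bars for the group means and SD. Group means of the receptors rise in the order B6 control, B6 resilient, B6 susceptible, D2 control and D2 susceptible, from 3.47 to 4.32 for Crhr1 and 3.82 to 4.45 for Oxtr. Those of Crh fall in this order, from 1.11 to 0.26.

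The other vHPC members did not pass the test with stress. Crh lay at 0.45, 0.97 and 1.23 log2 CPM (lowest, median, highest) in B6 resilient mice and at 0.68, 0.65 and 1.04 in B6 susceptible mice, both overlapping the B6 controls. It lay at 0.13, 0.31, 0.12, 0.37 and 0.35 in D2 susceptible mice, inside the range of D2 controls. The difference of Crh was −0.32 (SE 0.17, adjusted p = 0.137, limma, approximate 95% interval −0.66 to 0.02) in B6 susceptible and −0.02 (SE 0.15, −0.31 to 0.27) in D2 susceptible mice. Crhbp differed by −0.01 (SE 0.09, −0.19 to 0.17) and 0.02 (SE 0.08, −0.13 to 0.18). Crhr2 differed by −0.54 (SE 0.27, adjusted p = 0.109, limma) in B6 susceptible mice, beside choroid plexus sums of 42.0 to 2162 CPM in B6 controls and 26.8 to 84.0 CPM in B6 susceptible mice, whose part was not tested. The interaction of strain and stress called 0 of 5 members in limma, with 0 at an unadjusted p under 0.05, against 0.782% and 18.4% of all genes. It was −0.17 (SE 0.15, adjusted p = 0.533) for Crhr1 and −0.14 (SE 0.10, adjusted p = 0.455) for Oxtr in limma, so a difference in stress response between strains was not detected.

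Ordered by level, most neighbouring groups lay within the larger of their SDs. In the mPFC Crhbp of B6 controls lay beyond that spread below D2 susceptible mice, as did B6 susceptible below B6 resilient mice, and for Crhr1 B6 resilient lay below B6 control mice. In the BNST the only such step was Crhr2 between D2 resilient and D2 susceptible mice. In the vHPC the steps were Crh from B6 susceptible down to D2 control, Crhr1 from B6 control up to B6 resilient and from D2 control up to D2 susceptible, and Oxtr from B6 control to B6 resilient to B6 susceptible and from D2 control to D2 susceptible mice.

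A list of 34 further genes of these pathways gave a wider view. It held other ligands and receptors, the enzymes and granule proteins that make the peptides, release and cleavage proteins, neuroendocrine transcription factors and signalling partners of the receptors. Of these, 26 could be tested with the mPFC table, 28 with the BNST counts and 27 with the vHPC table. The urocortins Ucn, Ucn2 and Ucn3, which bind the CRH receptors, the other vasopressin receptors Avpr1b and Avpr2, and Sim1 were too low for a test in all 3 regions. Stress called 0 of the list in the mPFC, against 0% to 2.22% of all genes, and 0 in the BNST, against 0% to 0.00571%.

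Scg5, whose product 7B2 is a chaperone of the prohormone convertase encoded by Pcsk2, was higher in D2 than in B6 controls in all 3 regions. The log2 difference was 1.01 in mPFC (SE 0.05, adjusted p = 3.74e-15, limma), 0.99 in BNST (SE 0.12, adjusted p = 2.11e-06, edgeR) and 1.83 (SE 0.07, adjusted p = 3.06e-17, limma) in the vHPC. In the mPFC limma called 2 of the list higher in D2 controls, Scg5 and Arrb2 (0.18), and 1 lower, Cpe (−0.26), which encodes carboxypeptidase E. These 3 of 26 stand beside 27.8% of all genes. In the BNST edgeR called Scg5 higher and Arnt2 (−0.49), a partner of the SIM1 factor, lower, or 2 of 28 beside 2.51% of all genes. In the vHPC limma called 8 higher and 7 lower of 27, near the 59.3% of all genes, among them Cd38 at −1.66 (SE 0.09, adjusted p = 3.66e-14), an enzyme needed for oxytocin release in mice. The list's median strain difference was 0.02 for mPFC, 0.09 for BNST and −0.02 for vHPC controls, beside 0.002, 0.04 and 0.007 over all genes.

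In the vHPC the stress calls of the list were 1 higher (Scg5, 0.63) and 1 lower (Cd38, −0.55) in B6 resilient mice, where 2120 of 19559 genes were called, and again Scg5 (0.47) higher and Cd38 (−0.51) lower in D2 susceptible mice, where 837 were. In B6 susceptible mice 8 of 27 were higher, among them Scg5 (0.74), Prep (0.39) and Gnaq (0.27), and 4 were lower, among them Cd38 (−0.999) and Plcb4 (−0.30), by limma, a share of the list near that of all genes (7949 of 19559). The median difference was 0.05 beside −0.01 over all genes. Scg5 and Cd38 also differed between vHPC controls of the strains, Scg5 higher and Cd38 lower in D2, the direction in which the defeated vHPC groups were displaced. With the displacement taken off, limma called no gene in these 3 comparisons with controls, so the stress calls given above were lost. Between susceptible and resilient B6 mice limma called 3 of 27 higher (Arnt2, Prep and Gnaq) and 2 lower (Adcy1 and Cd38), where 5404 of 19559 genes were called. With the displacement taken off, 2680 genes were still called there, and the list was not followed under that setting.

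For each member the genes most like it were found by Pearson r over the libraries of a region, after group means were taken off, among all other genes of the table. In the BNST, over 28 libraries, these were Gm37928 (0.88), Gabra5 (0.88) and Pde1a (0.87) for Crh, Amigo1 (0.93) for Crhr1, 4930539E08Rik (0.84) for Crhr2 and Vopp1 (0.76) for Crhbp. For Avp they were Ubap1l (0.78), Glra1 (0.76) and Greb1 (0.75), for Oxt Gm38075 (0.73), for Avpr1a Parp8 (0.78), and for Oxtr Gm42973 (0.87) and Tnr (0.86). In the mPFC, over 32 libraries, Cbln4 (0.72) was most like Crh, Sec14l1 (0.85) like Crhr1, Uqcrc1 (0.79) like Crhbp, and Ndst4 (0.83) and Rxfp3 (0.82) like Oxtr. In the vHPC, over 28 libraries, Myom3 (0.90) was most like Crh, Cacna2d3 (0.87) like Crhr1, Ace (0.92) like Crhr2, Cltc (0.88) like Crhbp and Ehd3 (0.76) like Oxtr. The points of each correlation share library, depth and tissue makeup, and no test was made.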

How the data were processed

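RNA of single mice, free of ribosomal RNA, was sequenced. In the authors' pipeline reads were trimmed, cleared of PCR duplicates, aligned to GRCm38 with STAR for both strains and assigned to gene exons with HTSeq. How D2 sequence differences from this C57BL/6J genome moved the counts was not tested. The deposited BNST table holds whole read counts. The deposited mPFC and vHPC tables hold log2 CPM, which the authors filtered for low genes and passed through voom and then ComBat (library sets, and sequencing sets in the vHPC). The depth of these regions cannot be read from log2 CPM, so precision comes from the spread between mice. BNST libraries held 11825757 to 25793910 reads.

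Members, lists and tests were chosen with earlier results of these data known. Positions came from GENCODE M21. Software was Python 3.11.15 with pandas 2.3.3, SciPy 1.17.1 and NumPy 2.4.6, and R 4.3.3 with limma 3.58.1, edgeR 4.0.16 and DESeq2 1.42.0. For BNST counts a gene needed 1 CPM or more in 6 or more libraries (17515 passed), TMM factors were 0.6561 to 1.273, and edgeR's quasi-likelihood test with the robust option was used. The deposited log2 CPM were tested with limma, also robust. All libraries of a region entered 1 model with a mean per group. P values were two-sided and adjusted by Benjamini-Hochberg over all genes of a region, threshold 0.05. Approximate 95% intervals are the difference ± 1.96 SE. Correlations used 100000 permutations and were adjusted over 9. The scripts were tested on simulated data. All 8 members are named, further pathway genes where called, and the genes most like each member. Alternatives were DESeq2, limma on voom values, other scaling and filters, empirical Bayes options, quantile normalization, covariates (library set, sequencing set, mouse ID prefix), only the groups compared, and omission of single mice. Tests without TMM factors and removal of the strain displacement were chosen after seeing the data.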

Additional observations from a re-analysis of the deposited data

Results flagged for a closer look

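In 5 of 80 groups of 4 to 10 mice a single library lay far from the others (Dixon's test at 95%), where chance alone gives about 1 in 20, or 4. In the mPFC, Oxtr of B6 control replicate 5 was 3.78 log2 CPM, above the others of its group at 3.202 to 3.39. In the BNST, B6 susceptible replicate 3 lay low in Crh, at −1.37 log2 CPM from 6 reads beside 0.88 to 1.53 in the others, and in Oxtr, at 0.70 from 27 reads beside 2.41 to 2.94. The same library had the highest sum of striatal neuron markers in the BNST, 8125 CPM, whose part in these values was not tested. Avpr1a of B6 resilient replicate 3 was −3.19 log2 CPM from 1 read, beside −0.71 to 0.20 in the others. In the vHPC, Crhr1 of B6 resilient replicate 4 was 3.35 log2 CPM, below the others at 3.66 to 3.93.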

How the results depend on the processing

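No paired analysis was possible because, within a region, no mouse stands in more than 1 of the groups compared, and litters are not stated. Across the alternatives 168 counts of members called stayed within 1.5 times the reported one and 22 did not, and of the changes of single members 210 kept direction and side of the threshold, 26 lost it, 4 gained it and 1 reversed. The mPFC count between strains in susceptible mice fell from 2 to 1 with library set as covariate or only the groups compared, and was 1 to 2 without single mice. In controls it was 1 to 2 (2 without D2 control replicate 1). The BNST count between strains in susceptible mice rose from 0 to 1 with DESeq2, to 2 without TMM factors (Oxt, 4.67, adjusted p = 0.0157, and Oxtr, 0.91, adjusted p = 0.0299, edgeR, where the median over all genes also moved to 0.49 and 5077 of 17515 genes were called against 907), and was 0 to 1 without single mice (1 without D2 susceptible replicate 1). Without TMM factors the Oxtr level of D2 susceptible mice was 3.305 log2 CPM. In the vHPC the counts fell to 0 as follows. Library set as covariate did so in all 4 stress comparisons and both strain comparisons, and removal of the strain displacement in the 4 stress comparisons. Sequencing set as covariate and only the groups compared did so for B6 resilient versus control, B6 susceptible versus resilient and D2 susceptible versus control mice. Quantile normalization and mouse ID prefix did so for D2 susceptible versus control. With library set, Oxtr in B6 resilient mice reversed to −0.12. Without single mice the counts were 0 to 1 for B6 resilient versus control, B6 susceptible versus resilient and D2 susceptible versus control, 2 to 3 for B6 susceptible versus control, 3 to 4 between control strains and 1 to 3 between susceptible strains (1 without B6 susceptible replicate 2). Correlations that missed the threshold were Avp with Oxt at 0.39 without the 2 farthest libraries and 0.54 in set 2, Oxt with hypothalamic genes at 0.40 and at 0.38 in set 1, and Crh with Crhbp at 0.61 in set 1, where each set holds 14 libraries. Crh with Avp reversed to 0.14 in BNST set 2, and Crh with Crhbp to 0.54 in mPFC set 3. Low counts limit Oxt, Avp, Avpr1a and Crhbp in the BNST. The cause of these changes was not tested, beyond the smaller number of mice where libraries were left out.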
